A study of Mus musculus with 12 samples.

Results

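Toll-like receptors and the proteins that help them bind bacterial lipopolysaccharide (LPS) were examined in CD8 T cell preparations that received LPS or another stimulus. The 10 genes were taken from the count table by symbol: Tlr4 with its partners Ly96 (MD-2) and Cd14, Cd180 (RP105) with its partner Ly86 (MD-1), the surface receptors Tlr1 and Tlr2, and the endosomal receptors Tlr3, Tlr7 and Tlr9. They are 10 of the 20778 genes in the table, and all 10 were among the 12122 genes with enough counts to be tested.

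CD8 T cells were purified from spleens of C57BL/6 mice with magnetic beads and cultured for 6 hours, and polyadenylated RNA was sequenced. The 4 groups of 3 libraries were untreated cells (Naïve), cells given an antibody to the CD3 part of the T cell receptor (αCD3, 1 µg/ml), cells given interferon gamma (IFNγ, 70 ng/ml) and cells given LPS (LPS, 1 µg/ml). For αCD3 and LPS a second label field has mg in place of µg, and the label age of 6 weeks is below that in the study's methods, so dose unit and age are uncertain. The labels name no genetic change, all groups share strain, organ and culture time, and nothing says that replicates came from separate animals, so p-values measure only the spread between these libraries. The study asked which kind of activation gives splenic T cells the molecules that make tumor cells enclose each other as cell-in-cell structures. For the receptor genes the question is which of them had RNA in each group, how each stimulus moved them, and which cells in the preparation could sense LPS.

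TLR4 recognises LPS as a complex with MD-2, and CD14 hands LPS to that complex. RP105 is a relative of TLR4 without the intracellular signalling domain, pairs with MD-1 and is known from B cells, dendritic cells and macrophages. TLR2 forms dimers with TLR1 or TLR6 for bacterial lipoproteins, while TLR3, TLR7 and TLR9 lie in endosomes and bind double-stranded RNA, single-stranded RNA and unmethylated CpG DNA. Resting CD8 T cells are known for little TLR4 and CD14, which are typical of monocytes, macrophages and neutrophils.

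Upstream sequence is shown for Tlr9, which rose with IFNγ, and for Cd180 and Ly86, a receptor and its partner whose RNA moved in opposite directions with LPS. The RefSeq table of gene starts (GRCm38.p6) matched 6 of the 10 genes. Tlr4, Tlr7, Ly96 and Cd14 were not matched. The stretches are from the 250 bases before the RefSeq start, written 5′ to 3′ on the strand of the gene, at chr9:106222348-106222597 (+) for Tlr9, chr13:102693297-102693546 (+) for Cd180, before the first of its 2 starts, and chr13:37345095-37345207 (+) for Ly86. For Ly86 only the 113 bases before the first GENCODE exon are printed. Capitals mark a match to the AP-1 motif.
Tlr9: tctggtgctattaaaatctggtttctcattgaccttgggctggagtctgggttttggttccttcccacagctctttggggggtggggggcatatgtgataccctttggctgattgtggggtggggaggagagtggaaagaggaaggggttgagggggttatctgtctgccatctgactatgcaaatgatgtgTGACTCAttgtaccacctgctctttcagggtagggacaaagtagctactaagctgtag
Cd180: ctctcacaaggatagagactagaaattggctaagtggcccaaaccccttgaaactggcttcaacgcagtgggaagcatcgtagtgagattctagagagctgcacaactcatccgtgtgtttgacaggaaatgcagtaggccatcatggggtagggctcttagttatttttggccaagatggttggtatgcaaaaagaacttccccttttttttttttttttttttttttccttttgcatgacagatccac
Ly86: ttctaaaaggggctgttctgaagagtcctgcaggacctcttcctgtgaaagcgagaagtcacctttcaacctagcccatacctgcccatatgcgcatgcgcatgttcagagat

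The 250-base windows of the 6 matched genes, 8 in all, were searched on both strands for short motifs. The AP-1 motif, TGACTCA or TGAGTCA, was found before Tlr9, at bases -58 to -52 counted back from the start, and in 4.46% of all 32851 windows. The NF-κB motif was found before Tlr2 and Tlr3 and in 7.25% of windows, and the match before Tlr3 lies in an exon of GENCODE models that start farther upstream. The PU.1 motif GAGGAAGT stood before Tlr1, as in 2.44% of windows. These are matches of letters in short windows and no measure of binding.

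The libraries held 10196248 to 27610175 counts and 14348 to 15372 detected genes, and αCD3 replicate 1 was the deepest. Expression values are CPM, in which each library's counts were brought to the same total after TMM normalisation (trimmed mean of M values). Markers of other cells were abundant in these CD8 preparations. In Naïve libraries Cd79a, part of the B cell receptor, stood at 827 to 958 CPM against 122 to 133 for Cd3e of the T cell receptor and 206 to 269.6 for Cd8a, and the summed level of 12 B cell markers (3683 to 4009 CPM) exceeded that of 11 T cell markers (1752 to 1932). The sum of 14 macrophage and monocyte markers was 659, 1208 and 1187 CPM in Naïve replicates 1 to 3, and replicate 1 was the lowest in all 4 groups. The sum of 8 neutrophil markers lay between 129 and 239 CPM in all libraries, that of 8 dendritic cell markers between 49.4 and 123 and that of 6 NK cell markers between 104 and 236. Cd163 of red pulp macrophages stayed at or under 0.782 CPM and the neutrophil gene Ly6g at or under 0.409. These were the lowest of their lists. Other members were well detected in Naïve, such as the macrophage marker Adgre1 (36.2 to 80.0 CPM) and the neutrophil marker S100a8 (35.2 to 41.8 CPM). In such bulk samples fewer cells of a type and less RNA per cell cannot be told apart.

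**Figure D1:**
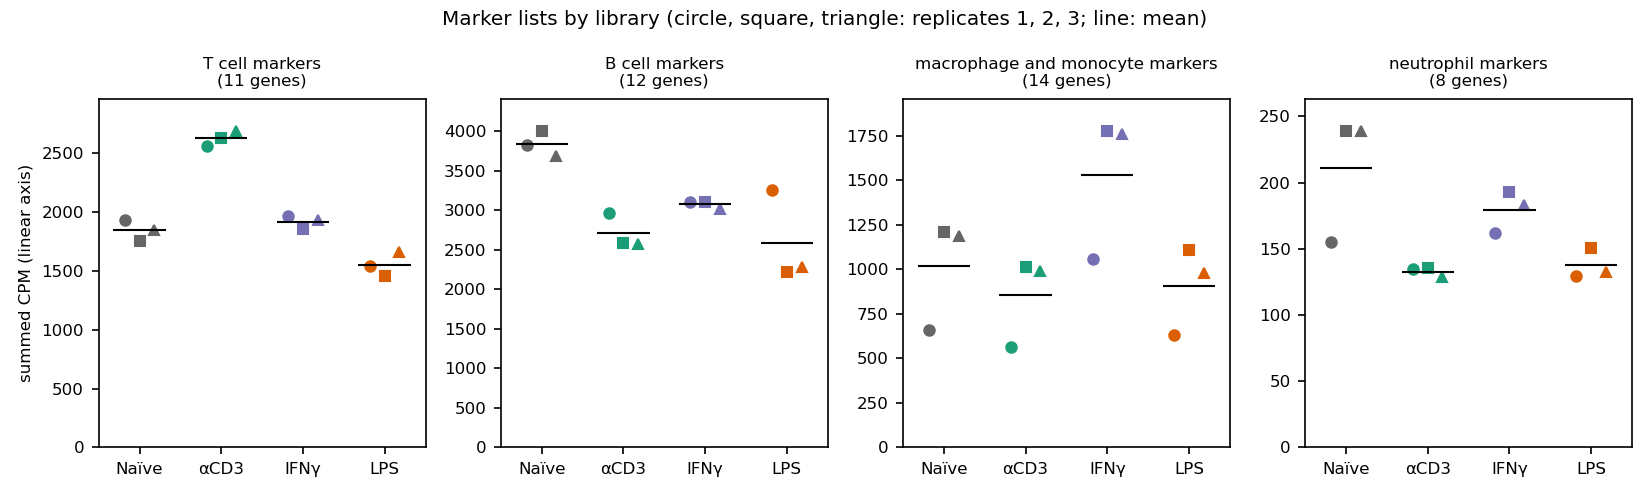
Summed CPM (linear axis) of T cell, B cell, macrophage and monocyte, and neutrophil marker genes in each of the 12 libraries by group, with symbols for replicates and a line at the mean. The B cell sum lies above the T cell sum in every Naïve library, the macrophage sum of replicate 1 is the lowest of its group in all 4 groups, and the T cell sum is highest in αCD3.

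Levels of different genes were compared per length, as TPM (counts over transcript length, scaled to a common total), computed with the median length of protein-coding GENCODE M21 transcripts. In Naïve libraries Cd180 (166 ± 16.8 TPM, SD, n = 3) and Ly86 (114 ± 10.4) stood highest, and Cd14, Tlr1, Tlr9, Tlr7 and Tlr2 followed between 41.2 and 22.5 TPM, where neighbours in the order overlapped. Ly96 (11.6 ± 2.32) and Tlr4 (9.04 ± 3.27) overlapped each other below them, and Tlr3 (0.764 ± 0.0855) was apart at the bottom. With the length of all exons joined, Cd14 came first at 90.9 TPM, then Ly86 at 82.7 and Cd180 at 72.4 with overlapping ranges, so the order of the upper genes depends on the length used. Ly96, Tlr4 and Tlr3 were the lowest 3 under both lengths. Within the LPS receptor complex, per length, Cd14 thus stood above both Tlr4 and Ly96 in Naïve. In LPS libraries Tlr4 was last at 2.59 ± 0.474 TPM and overlapped Tlr3 at 3.35 ± 1.89, under both lengths.

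**Figure D2:**
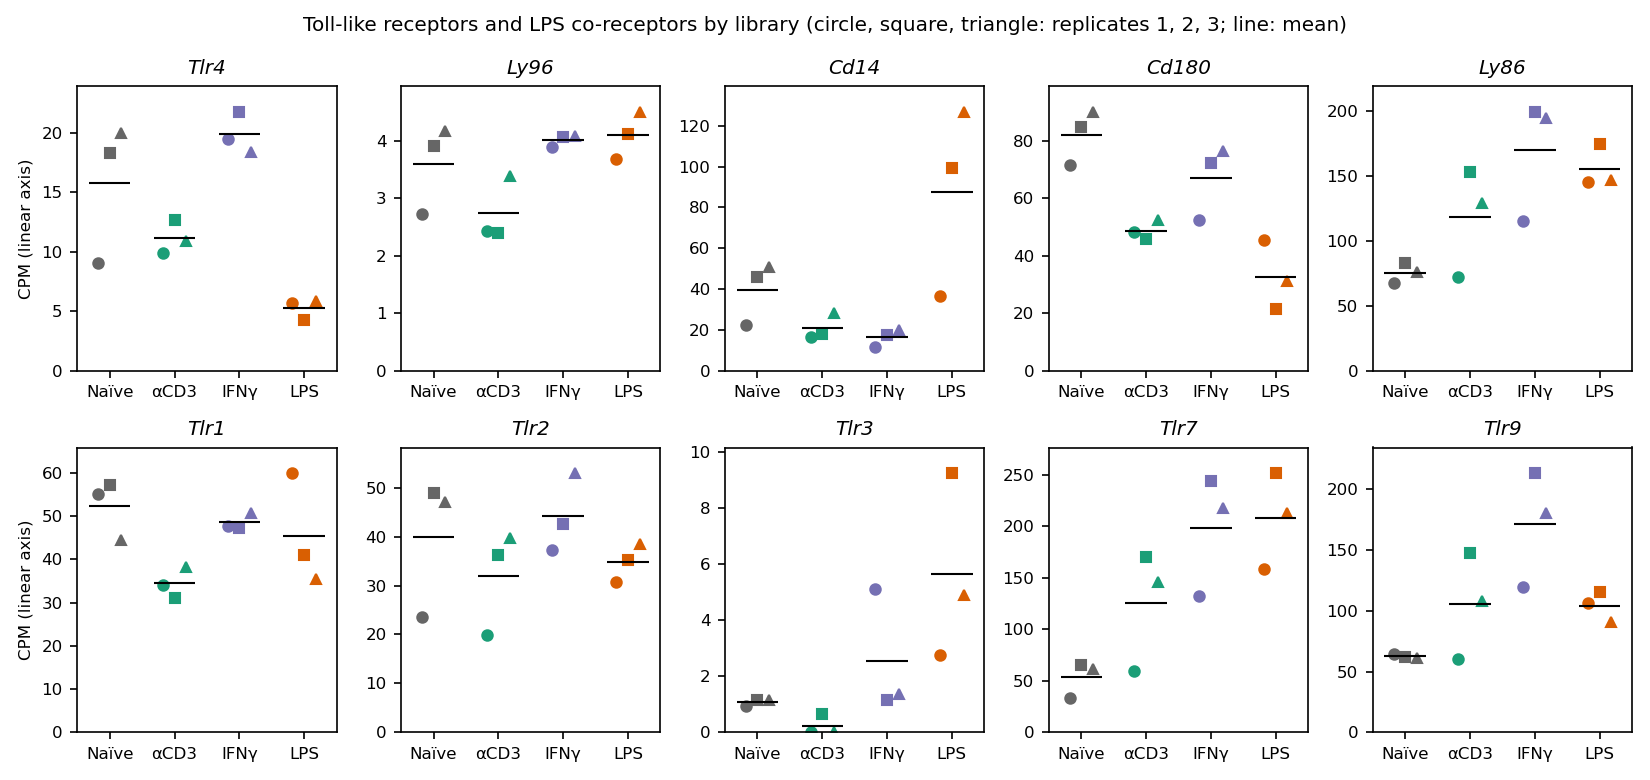
CPM of the 10 genes in each library (linear axes, one panel a gene, each with its own scale) by group, with symbols for replicates 1, 2 and 3 and a line at the mean. Tlr4 is lowest in the 3 LPS libraries, Tlr7 is above all Naïve libraries in every LPS and IFNγ library, and Cd14 is spread from 36.6 to 127 CPM with LPS.

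The 6 comparisons between groups were tested with edgeR's quasi-likelihood test, and a gene with a Benjamini-Hochberg adjusted p under 0.05 over all tested genes is called. That main fit used group alone, although libraries of the same replicate number deviated together. Calls that changed with replicate number as a block are given beside it. With LPS, 4 of the 10 genes rose (Tlr3, Tlr7, Cd14 and Ly86) and 2 fell (Tlr4 and Cd180) against Naïve, while 49.3% of all genes were called, 26.9% higher and 22.3% lower. With IFNγ, 3 rose (Tlr7, Tlr9 and Ly86) and 0 fell, against 12.4% of all genes called, 8.17% higher and 4.27% lower. Beside that 0, 1 gene (Cd14) was lower at an unadjusted p under 0.05 and by DESeq2, 0 were by limma-voom, and Cd14 was called when replicate number was a block in the fit, which gave 13.5% of all genes higher and 11.4% lower. With αCD3, 1 rose (Tlr7) and 2 fell (Tlr1 and Cd180), against 38.6% of all genes called, 22.9% higher and 15.7% lower. The replicate block made these 2 higher (Tlr7 and Ly86) and 3 lower (Tlr1, Cd180 and Cd14), against 28.1% and 24.2% of all genes, and DESeq2 and limma-voom each gave 3 lower (Tlr1, Cd180 and Tlr3). The median log2 fold change of the 10 genes was 0.46 with LPS, 0.25 with IFNγ and -0.45 with αCD3, where the median over all tested genes was -0.01, -0.02 and -0.02. The balance of higher and lower calls over all genes depends on the scaling. On library sizes alone it was 17.7% higher and 36.1% lower with LPS, 5.9% and 12.9% with IFNγ, and 17.3% and 22% with αCD3, while the 10 genes gave 3 higher and 2 lower, 3 and 0, and 1 and 2. These comparisons share the Naïve libraries. A single test over all groups at once called 8 of the 10 genes, but neither Tlr2 (adjusted p = 0.495) nor Ly96 (adjusted p = 0.0985), against 59.9% of all genes called. Treated and Naïve libraries did not overlap for 6 of the 10 genes with LPS (58% of all genes), 4 with IFNγ (31.5%) and 3 with αCD3 (52.4%).

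**Figure D3:**
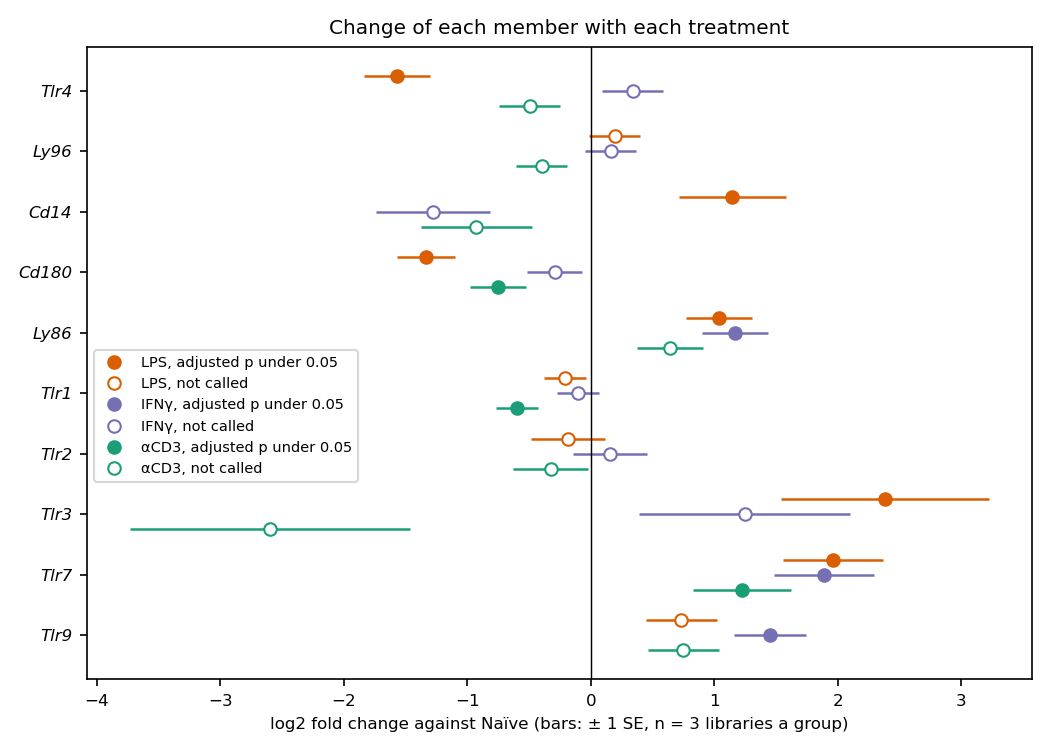
log2 fold change of each gene against Naïve for LPS, IFNγ and αCD3 (bars, ± 1 SE, n = 3 libraries a group; filled symbols, adjusted p under 0.05). Tlr4 and Cd180 lie left of 0 with LPS at -1.57 and -1.34, and Tlr7 lies right of 0 and is called with all 3 stimuli.

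Tlr4 (chr4:66827584-66930284, + strand, GRCm38), the signalling receptor for LPS, fell with LPS. It measured 9.07, 18.3 and 20.0 CPM in Naïve replicates 1 to 3 and 5.73, 4.29 and 5.87 in LPS. All LPS libraries lay below all Naïve libraries, and Naïve replicate 1 lay well below the other two. The fall was 1.57 ± 0.27 on the log2 scale (SE, adjusted p = 0.000727), and it stayed called under all 20 alternatives, with adjusted p up to 0.0072. The LPS values rest on 51 to 73 counts a library. IFNγ libraries held 19.5, 21.8 and 18.4 CPM, which overlapped Naïve (log2 fold change 0.34 ± 0.25, adjusted p = 0.442). With αCD3 the values were 9.94, 12.7 and 10.95 CPM, between LPS and most of Naïve, and the change of -0.50 ± 0.25 missed the threshold (adjusted p = 0.141). That change was -0.78 (adjusted p = 0.00422) without Naïve replicate 1 and -0.69 (adjusted p = 0.0068) without replicate 1 of all groups. Csf1r, the receptor of macrophage growth factor, was spread like Tlr4 in Naïve, at 56.8, 128 and 142 CPM, and stood at 21.5, 27.3 and 30.2 CPM with LPS. The likeness did not extend to IFNγ, where the mean of Csf1r was 57.6 CPM (31.9, 63.9 and 77.0) against 109 in Naïve, while Tlr4 had no lower mean. With αCD3 Csf1r held 36.7, 43.8 and 63.1 CPM.

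Macrophage and monocyte markers moved beside Tlr4. With LPS 0 of 13 tested were called higher and 9 lower, among them C1qc (log2 fold change -2.14), Csf1r (-2.04), C1qa (-1.97) and Lyz2 (-1.14), and 3 of 7 neutrophil markers were lower (Mmp9, Cxcr2 and Csf3r). Of all genes 26.9% were higher and 22.3% lower with LPS. The summed level of the macrophage and monocyte markers overlapped between the groups, at 633 to 1110 CPM with LPS against 659 to 1208 in Naïve. Mpeg1, which makes perforin-2, had a higher mean with LPS (632 against 395 CPM) without a call (adjusted p = 0.131). Without Mpeg1, a choice made after its values were seen, the other 13 markers summed to 407, 736 and 727 CPM in Naïve and 204, 307 and 313 with LPS, with no overlap. With αCD3, 5 of the 13 were lower, and with IFNγ Mpeg1 was higher and 1 of the 13 lower. Of all genes 15.7% were lower with αCD3, and 8.17% were higher and 4.27% lower with IFNγ. T cell markers were lower with LPS as well, 8 of 11 with a median log2 fold change of -0.37 and 0 higher, and their sum of 1458 to 1660 CPM lay below the Naïve range. The part of these cells in the fall of Tlr4 was not tested.

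Ly96 (chr1:16688051-16709611, + strand), which makes the MD-2 subunit that binds LPS, was called in none of the 3 comparisons with Naïve. Naïve libraries held 2.73, 3.91 and 4.18 CPM, LPS 3.68, 4.12 and 4.50, IFNγ 3.89, 4.07 and 4.09, and αCD3 2.43, 2.40 and 3.38. All groups overlapped Naïve, on 29 to 69 counts a library. The log2 fold change was 0.19 ± 0.21 with LPS (adjusted p = 0.469), 0.16 ± 0.21 with IFNγ and -0.40 ± 0.21 with αCD3 (adjusted p = 0.157). The first of these was -0.02 on library sizes alone.

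Cd14, the LPS carrier on chromosome 18, rose with LPS by the main test, while its means with IFNγ and αCD3 were below Naïve without a call. Naïve replicates 1 to 3 held 22.3, 46.1 and 50.9 CPM, and LPS 36.6, 99.4 and 127. Replicates 2 and 3 of LPS lay above all Naïve libraries and replicate 1 lay within their range. The log2 fold change was 1.15 ± 0.44 with an adjusted p of 0.0499, at the edge of the threshold. Each LPS library lay above the Naïve library of the same number, and with the replicate block the change was 1.09 (adjusted p = 0.00235). In 16 of 20 alternatives it was not called, among them every fit that left out a library of Naïve, αCD3 or IFNγ, or LPS replicate 2 or 3, where the change was 0.78 to 1.37 (adjusted p = 0.0543 to 0.197). IFNγ libraries held 11.7, 17.7 and 19.9 CPM, all below Naïve, and the change of -1.28 ± 0.46 was not called (adjusted p = 0.107). With the replicate block it was -1.24 (adjusted p = 0.00682), by DESeq2 -1.27 (adjusted p = 0.0225), without LPS replicate 1 -1.28 (adjusted p = 0.0375) and without replicate 1 of all groups -1.39 (adjusted p = 0.00643), called in each. With αCD3, Cd14 was at 16.5, 18.2 and 28.3 CPM, the last inside the Naïve range. The change was -0.93 ± 0.45 (adjusted p = 0.127), and with the replicate block -0.84 (adjusted p = 0.0137).

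Receptor and carrier moved apart within libraries. The ratio of Cd14 to Tlr4 CPM was 2.46, 2.52 and 2.55 in Naïve, although both genes were about 2 times lower in replicate 1. It was 6.39, 23.2 and 21.6 with LPS, 0.598, 0.813 and 1.08 with IFNγ, and 1.66, 1.44 and 2.58 with αCD3. LPS and IFNγ libraries thus lay on opposite sides of Naïve without overlap, 5.88-fold higher and 0.321-fold on the geometric mean. A two-sided exact permutation test gave p = 0.1 for each, the smallest that 3 against 3 libraries allow, and p = 0.4 for αCD3. This was 1 of 3 ratios formed, tested in 9 comparisons, none of which could pass 0.05.

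**Figure D4:**
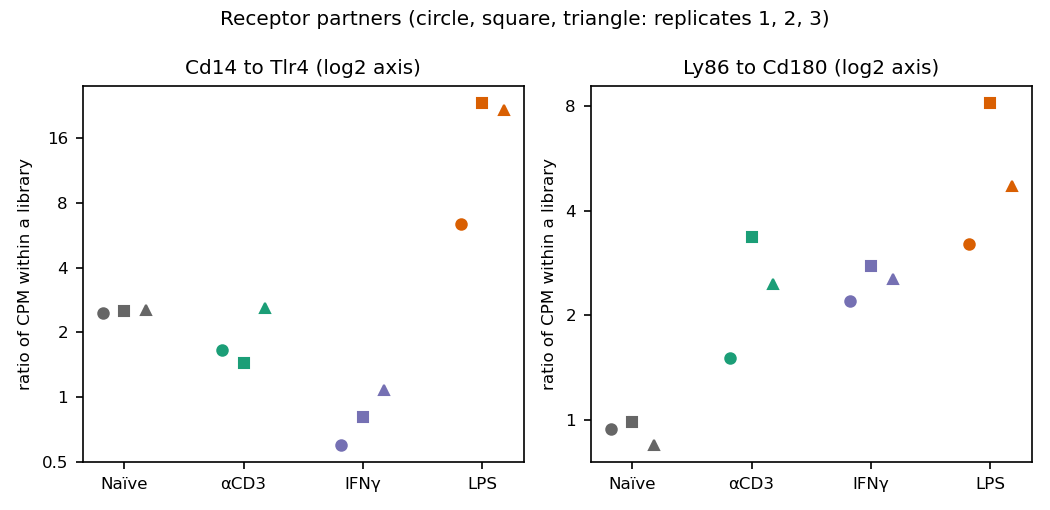
Ratio of CPM within each library (log2 axes) of Cd14 to Tlr4 and of Ly86 to Cd180 by group, with symbols for replicates 1, 2 and 3. Cd14 to Tlr4 is near 2.5 in Naïve, above 6 with LPS and 0.598 to 1.08 with IFNγ, and Ly86 to Cd180 is under 1 in Naïve and above it in all treated libraries.

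Cd180 (chr13:102693558-102739629, + strand), which makes RP105, fell with LPS and with αCD3. Naïve libraries held 71.7, 84.7 and 90.0 CPM, LPS 45.4, 21.4 and 31.1, αCD3 48.2, 45.7 and 52.3, and IFNγ 52.5, 72.1 and 76.5. LPS and αCD3 libraries all lay below Naïve, and IFNγ overlapped it. With LPS its log2 fold change was -1.34 ± 0.23 (adjusted p = 0.000945), called under all 20 alternatives. The gene span of Mast4 overlaps that of Cd180 on the other strand, and that of Gm45542 likewise overlaps Tlr3. Whether their exons overlap was not checked. Without known library strand, reads from any shared exon could not be told apart. With αCD3 the change of Cd180 was -0.75 ± 0.23 (adjusted p = 0.0236), and leaving out Naïve replicate 2 or 3 or any αCD3 replicate took it to between -0.80 and -0.68 with adjusted p of 0.0513 to 0.0809. With IFNγ it was -0.29 ± 0.23 (adjusted p = 0.470).

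Ly86 (chr13:37345208-37419036, + strand), which makes MD-1 and is needed for RP105 at the cell surface, moved the other way. It measured 67.6, 83.2 and 76.0 CPM in Naïve, 145, 174 and 147 with LPS, 115, 199 and 194 with IFNγ, and 72.4, 153 and 129 with αCD3. All LPS and IFNγ libraries lay above Naïve, and αCD3 replicate 1 lay within the Naïve range. Ly86 changed by 1.04 ± 0.27 on the log2 scale with LPS (adjusted p = 0.00853), called under all 20 alternatives. With IFNγ it was 1.17 ± 0.27 (adjusted p = 0.0180), and 1.03 to 1.17 with adjusted p of 0.0640 to 0.0733 when Naïve replicate 1 or 3 or IFNγ replicate 2 or 3 was left out. With αCD3 it was 0.64 ± 0.27 (adjusted p = 0.0806), 0.58 with the replicate block (adjusted p = 0.0221) and 0.90 without αCD3 replicate 1 (adjusted p = 0.00738).

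The ratio of Ly86 to Cd180 was 0.943, 0.983 and 0.844 in Naïve. It was 3.20, 8.15 and 4.72 with LPS, 2.20, 2.76 and 2.54 with IFNγ, and 1.501, 3.35 and 2.47 with αCD3, above Naïve in all 9 treated libraries. The geometric means were 5.40-fold, 2.70-fold and 2.51-fold those of Naïve, each with an exact permutation p of 0.1, the smallest possible. B cell markers, which RP105 accompanies on B cells, were counted as well. With LPS 4 of 12 were lower (Cd79b at -1.88, Cd79a at -1.62, Bank1 at -1.56 and Blk at -0.63 on the log2 scale) and Pax5 was higher (0.39). Of all genes 49.3% were called with LPS, 26.9% higher and 22.3% lower. With αCD3, 6 of 12 were lower, and with IFNγ 2 were, Fcer2a among them, where 15.7% and 4.27% of all genes were lower. The summed B cell level was 2222 to 3256 CPM with LPS, 2579 to 2972 with αCD3 and 3011 to 3111 with IFNγ, all below the Naïve range. Their part in the change of Cd180 was not tested.

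Tlr1 (chr5:64924679-64933563, - strand), the partner of TLR2 for triacylated lipoproteins, was called in 1 of the 3 comparisons with Naïve, lower with αCD3. Naïve libraries held 55.0, 57.1 and 44.5 CPM, αCD3 34.1, 31.02 and 38.1, IFNγ 47.6, 47.2 and 50.7, and LPS 59.8, 40.9 and 35.4. Every αCD3 library lay below Naïve, and the LPS libraries spanned the Naïve range. The change with αCD3 was -0.60 ± 0.17 on the log2 scale (adjusted p = 0.0175), and -0.56 to -0.53 with adjusted p of 0.0537 to 0.0706 without Naïve replicate 1 or 2 or αCD3 replicate 2. With LPS it was -0.21 ± 0.17 (adjusted p = 0.340), but -0.45 (adjusted p = 0.0129) without LPS replicate 1. With IFNγ it was -0.11 ± 0.17 (adjusted p = 0.753). Of the 31-base words of Tlr1, 80.0% were found in no other gene, and Tlr6 shared the most of the others (607), so part of its count rests on how reads were divided between like genes.

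Tlr2 (chr3:83836272-83841767, - strand), the receptor for bacterial lipoproteins, was called in none of the 6 comparisons. It measured 23.5, 49.0 and 47.0 CPM in Naïve, 30.8, 35.2 and 38.5 with LPS, 37.2, 42.6 and 52.9 with IFNγ, and 19.9, 36.2 and 39.7 with αCD3. Replicate 1 was the lowest of its group in all 4 groups, as were those of Tlr7, Cd14 and Ly86 and the macrophage and monocyte sum. The pattern was not particular to macrophage markers. The sums of the other pattern receptors and of the chaperones and ligand carriers described below had it too. For Tlr4 replicate 1 was the lowest in Naïve and αCD3 but not in IFNγ or LPS. The log2 fold changes were -0.19 ± 0.30 with LPS, 0.16 ± 0.30 with IFNγ and -0.33 ± 0.30 with αCD3 (adjusted p = 0.641, 0.802 and 0.420). Without replicate 1 of all groups they were -0.38 with LPS (adjusted p = 0.0162), -0.02 with IFNγ and -0.33 with αCD3 (adjusted p = 0.0323), a set of libraries chosen after the data were seen.

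Tlr7 (chrX:167304929-167330558, - strand), the endosomal receptor for single-stranded RNA, rose with all 3 stimuli. Naïve libraries held 33.2, 65.6 and 61.6 CPM, LPS 159, 251 and 213, IFNγ 132, 244 and 218, and αCD3 59.6, 170.5 and 145. LPS and IFNγ libraries all lay above Naïve, while αCD3 replicate 1 lay within its range. The log2 fold change was 1.96 ± 0.41 with LPS (adjusted p = 0.00264), called under all 20 alternatives, and 1.89 ± 0.40 with IFNγ (adjusted p = 0.0128), lost in 1 alternative, without IFNγ replicate 2 (1.71, adjusted p = 0.0522). With αCD3 it was 1.23 ± 0.40 (adjusted p = 0.0329). That call was lost without Naïve replicate 1 or 3 or αCD3 replicate 2 or 3 (0.94 to 1.34, adjusted p = 0.0602 to 0.132), and it is the one that the count of genes higher with αCD3 rests on.

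Tlr9 (chr9:106222598-106226883, + strand), the receptor for CpG DNA, rose with IFNγ. It stood at 64.1, 62.2 and 60.9 CPM in Naïve, at 119.5, 213 and 180.1 with IFNγ, at 106, 115 and 90.2 with LPS, and at 60.6, 147 and 108 with αCD3. Naïve libraries hardly differed, IFNγ and LPS libraries all lay above them, and αCD3 replicate 1 lay just below. Its log2 fold change was 1.45 ± 0.29 with IFNγ (adjusted p = 0.00888), called under all 20 alternatives. With LPS it was 0.73 ± 0.29 (adjusted p = 0.0547), and 0.72 with the replicate block (adjusted p = 0.0434). This rise with LPS was called in 7 of 20 alternatives. Among them were DESeq2 (0.72, adjusted p = 0.0257) and the fit of those 2 groups alone (0.72, adjusted p = 0.00139). It was called too without αCD3 replicate 1 (0.73, adjusted p = 0.0119) or 2 (0.0300), and in the fit that left out IFNγ replicate 1 (0.0439). With αCD3 the change was 0.75 ± 0.29 (adjusted p = 0.0606), 0.75 by DESeq2 (adjusted p = 0.0240), 1.03 without αCD3 replicate 1 (adjusted p = 0.0042) and 0.74 without IFNγ replicate 1 (adjusted p = 0.0469). Within libraries the ratio of Tlr9 to Tlr7 CPM was 1.93, 0.948 and 0.990 in Naïve, 0.668, 0.459 and 0.424 with LPS, 0.903, 0.873 and 0.828 with IFNγ, and 1.02, 0.864 and 0.742 with αCD3, so LPS and IFNγ libraries lay below Naïve (exact permutation p = 0.1 each, the smallest possible, and 0.3 for αCD3).

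Tlr3 (chr8:45395665-45411080, - strand), the receptor for double-stranded RNA, had the lowest counts of the 10 genes in Naïve and αCD3, and was higher in 1 IFNγ library and with LPS. Its counts were 19, 15 and 19 in Naïve, 27, 110 and 61 with LPS, 63, 13 and 14 with IFNγ, and 0, 8 and 0 with αCD3. On the CPM scale these were 0.926, 1.17 and 1.15 in Naïve, 2.76, 9.25 and 4.91 with LPS, 5.10, 1.15 and 1.36 with IFNγ, and 0, 0.662 and 0 with αCD3. LPS libraries lay above Naïve, and IFNγ replicate 1 stood apart from the other two and inside the LPS range. The log2 fold change with LPS was 2.38 ± 0.84 (adjusted p = 0.0369) and 2.31 with the replicate block (adjusted p = 0.0502). It was not called without any 1 of the Naïve replicates or without LPS replicate 2 or 3 (1.83 to 2.48, adjusted p = 0.0647 to 0.143). With IFNγ it was 1.25 ± 0.85 (adjusted p = 0.412), and 0.21 without IFNγ replicate 1 (adjusted p = 0.907). For αCD3 the fitted change of -2.60 ± 1.14 (adjusted p = 0.0944) rests on 8 counts in 1 library, and without that library, αCD3 replicate 2, it was called (adjusted p = 0.0131) at a fitted -6.97, which gives no size because both libraries left were at 0 counts. It was also called on all libraries by DESeq2 (-2.45, adjusted p = 0.0443) and limma-voom (-3.97, adjusted p = 0.0374).

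The stimuli were also compared with each other. Between IFNγ and LPS, 2 genes were higher in IFNγ and 1 lower, where 40.4% of all genes were called, 18% higher and 22.4% lower, and 4 of the 10 did not overlap (49.8% of all genes). Tlr4 was 1.91 ± 0.27 higher on the log2 scale (adjusted p = 0.000218) and Cd180 1.04 ± 0.23 higher (adjusted p = 0.00480), while Cd14 was lower by a log2 fold change of -2.42 ± 0.47 (adjusted p = 0.00207). All 3 kept their call under all 20 alternatives, and in all 3 the IFNγ and LPS libraries did not overlap. Tlr9 was 0.72 ± 0.28 higher in IFNγ (adjusted p = 0.0675), without overlap, and was called in the fits without αCD3 replicate 1 (adjusted p = 0.0152) or 2 (0.0379) and in that without IFNγ replicate 1 (0.0314). It was also called by DESeq2 (adjusted p = 0.0266), in the fit of these 2 groups alone (0.0383) and on library sizes alone (0.039), in all in 7 of 20 alternatives. Tlr1 was called without LPS replicate 1 (0.34, adjusted p = 0.0492). For Tlr7 the difference was -0.07 ± 0.39 and for Ly86 0.12 ± 0.26 (adjusted p = 0.902 and 0.735).

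Between αCD3 and LPS, 1 gene was higher in αCD3 and 2 lower, where 19.4% of all genes were called, 9.64% higher and 9.76% lower (13.9% and 6.32% on library sizes alone), and 5 of the 10 did not overlap (34.8% of all genes). Tlr4 was 1.07 ± 0.27 higher on the log2 scale (adjusted p = 0.0175), which missed the threshold without αCD3 replicate 2 (0.98, adjusted p = 0.0527) or LPS replicate 2 (0.94, adjusted p = 0.0773). Cd14 was lower by a log2 fold change of -2.07 ± 0.45 (adjusted p = 0.0102) and Tlr3 by -4.98 ± 1.07 (adjusted p = 0.00901), a size that rests on the counts of 0, 8 and 0. With the replicate block Tlr7 (-0.83, adjusted p = 0.0036) and Ly96 (-0.58, adjusted p = 0.0300) were lower too, which made 4 genes lower, where 16.5% of all genes were higher and 18.2% lower in that fit. Cd180 was 0.58 ± 0.23 higher in αCD3 (adjusted p = 0.107), and 0.89 without LPS replicate 1 (adjusted p = 0.0109).

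Between IFNγ and αCD3, 3 genes were higher in IFNγ and 0 lower, where 37.2% of all genes were called, 15.8% higher and 21.4% lower, and 5 of the 10 did not overlap (48.4% of all genes). For the count of 0, an unadjusted p under 0.05, DESeq2 and limma-voom also gave 0. Tlr1 was 0.50 ± 0.17 higher on the log2 scale (adjusted p = 0.0420), Tlr4 0.84 ± 0.25 (adjusted p = 0.0231) and Tlr3 3.85 ± 1.09 (adjusted p = 0.0184). These calls were fragile. Tlr1 lost its call in 10 of 20 alternatives, with adjusted p up to 0.131 without αCD3 replicate 2 and over 0.05 without any 1 of the αCD3 or IFNγ replicates or without Naïve replicate 1 or 2. Tlr3 lost its call without αCD3 replicate 1 or 3 or IFNγ replicate 1 (2.81 to 3.37, adjusted p = 0.0536 to 0.0812), and Tlr4 without αCD3 replicate 1 or 3 or IFNγ replicate 2 (0.75 to 0.82, adjusted p = 0.0673 to 0.0717). With the replicate block, where 23.7% of all genes were higher and 25.9% lower, 8 genes were higher in IFNγ, the added ones being Tlr2 (0.52, adjusted p = 0.0274), Tlr7 (0.73, adjusted p = 0.00374), Tlr9 (0.73, adjusted p = 0.0430), Ly96 (0.56, adjusted p = 0.0243) and Ly86 (0.54, adjusted p = 0.0294). Without the block, leaving out 1 library called Tlr9 (αCD3 replicate 2 or IFNγ replicate 1, adjusted p = 0.0196 and 0.0357), Ly96 (Naïve replicate 1 or αCD3 replicate 3, adjusted p = 0.0386 and 0.0343) and Ly86 (IFNγ replicate 1, adjusted p = 0.0480). On all libraries DESeq2 called Tlr9 (adjusted p = 0.0342) and limma-voom called Ly96 (adjusted p = 0.0448).

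The genes around the receptors were counted in 5 lists of the pathway, whose counts stand beside 49.3% of all genes called with LPS, 12.4% with IFNγ and 38.6% with αCD3. Of 6 other Toll-like receptors, Tlr5 and Tlr11 had too few counts for a test. With LPS 2 of the 4 tested fell, Tlr13 (26.3 to 11.9 CPM, log2 fold change -1.15, adjusted p = 0.0142) and Tlr8 (4.85 to 0.839 CPM, -2.48, adjusted p = 0.0237), and 0 rose. With IFNγ Tlr6, the other partner of TLR2, rose (14.0 to 22.1 CPM, 0.65, adjusted p = 0.0190), and with αCD3 Tlr12 (-0.81) and Tlr6 (-0.56) fell. Tlr13 and Tlr8 recognise bacterial ribosomal RNA and RNA breakdown products in endosomes.

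Of 21 adaptors and kinases next to the receptors, 4 rose and 4 fell with LPS, with a median log2 fold change of 0.03, a smaller share called than over all genes. Pik3ap1 (1.18) and Myd88 (0.84), the adaptor that all Toll-like receptors but TLR3 use, rose with Tbk1 (0.41) and Traf6 (0.15), while Sarm1 (-1.54), Scimp (-0.99), the inhibitor Sigirr (-0.76) and Tirap (-0.54), which bridges TLR4 to MYD88, fell. With IFNγ Myd88 (0.61) and Tbk1 (0.58) rose and Ticam1 (-0.26) fell, and with αCD3 1 rose and 6 fell, led by Ikbke (-0.76), Irak3 (-0.65), Tirap (-0.45) and Irak2 (-0.40). Of 6 tested chaperones and ligand carriers, Hsp90b1 (0.55) and Cnpy3 (0.45), which fold Toll-like receptors, rose with LPS, while the scavenger receptor Cd36 (-2.61), Slc15a4 (-0.70) and Cnpy4 (-0.38) fell. Unc93b1, which carries the endosomal receptors out of the endoplasmic reticulum, rose with IFNγ (353 to 526 CPM, 0.57, adjusted p = 0.0063). With αCD3 Cd36 (-1.61) and Slc15a4 (-0.35) fell. The LPS-binding protein Lbp and the TLR4 cofactor Tril had too few counts for a test, at or under 0.531 and 0.390 CPM.

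LPS response genes were called in one direction with LPS: 17 of 18 tested rose and 0 fell, with a median log2 fold change of 1.93. The chemokine Cxcl1 (0.359 to 6.82 CPM, 4.21), the cytokine Il1a (5.55 to 84.2 CPM, 3.93), the prostaglandin synthase Ptgs2 (9.55 to 124 CPM, 3.71) and Acod1 (46.4 to 364 CPM, 2.97), which makes itaconate in macrophages, led them. With IFNγ 5 of 18 rose, Ptgs2 (2.97), Acod1 (2.42), Tnf (1.31), Icam1 (0.96) and Nfkbiz (0.34), and 0 fell. With αCD3 5 rose, led by Acod1 (1.36), Tnf (1.17) and Ccl4 (1.12), and Socs3 (-1.24) and Cxcl2 (-0.69) fell. The medians were 0.23 and 0.07. Among 13 other pattern receptors, 7 rose and Aim2 (-0.30) fell with LPS, and 7 rose with IFNγ. The RNA sensors Ifih1 (3.06 with LPS, 2.84 with IFNγ), Dhx58 (3.02 and 2.93) and Ddx58 (1.75 and 1.82) and the nucleic acid sensor Zbp1 (2.97 and 3.34) led in both. With αCD3 Dhx58 (2.13), Zbp1 (1.94) and Ifih1 (1.84) rose and Nod1 (-0.38) fell. The medians of that list were 1.40 with LPS, 0.80 with IFNγ and -0.01 with αCD3.

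**Figure D5:**
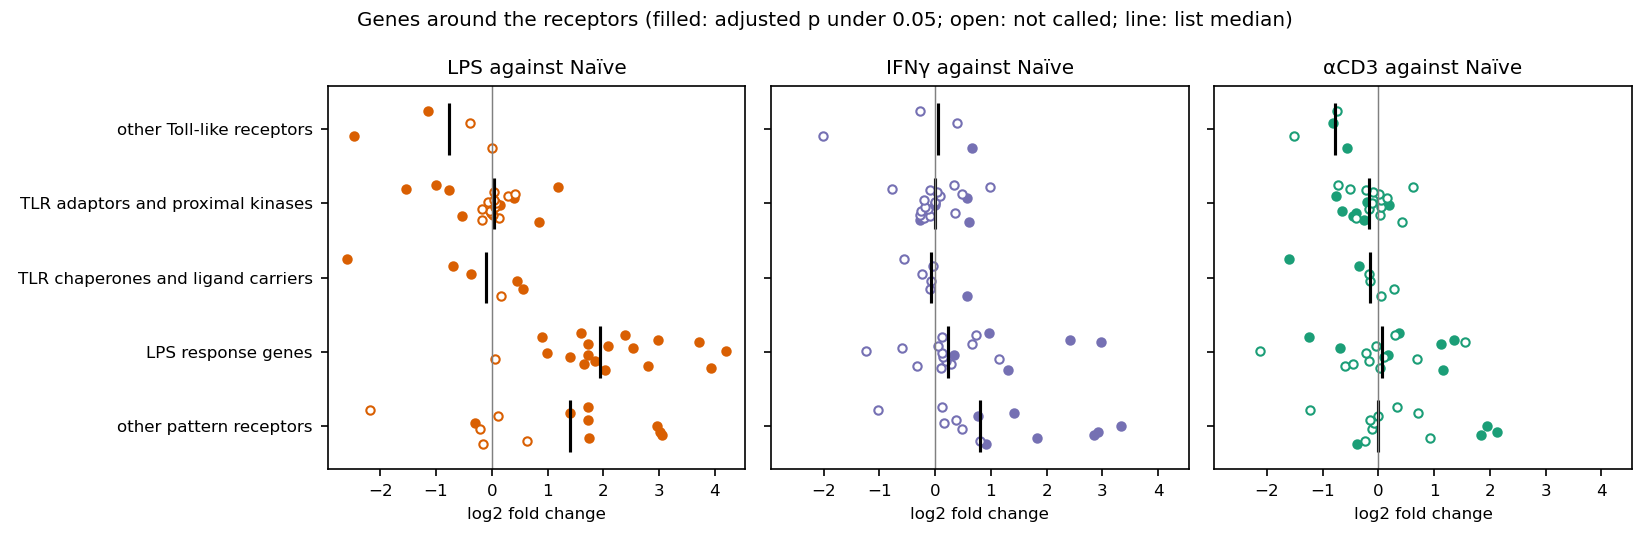
log2 fold change against Naïve of each tested gene of 5 pathway lists, one panel a stimulus (filled, adjusted p under 0.05; open, not called; vertical bar, median of the list). With LPS 17 of 18 LPS response genes are filled and lie right of 0, with a median of 1.93, against medians of 0.23 with IFNγ and 0.07 with αCD3.

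The genes most like each receptor were ranked by Pearson correlation of log2 CPM over the 12 libraries, which share their group differences and the replicate differences described above. Tlr7 was closest to the interferon-induced genes Ifi204 (r = 0.992), Lgals3bp and Oasl2 (0.989 each), and within groups, after each group mean was removed, these correlations were 0.995, 0.977 and 0.986. Ly86 was closest to Phf11a and Usp25 (0.992 each) and Tor1aip1 (0.989), and Tlr9 to Tbc1d1 (0.973), Ppm1k (0.963) and Cybb (0.961). Cd14 was closest to Hp (0.989), which makes haptoglobin, and to Met and Fnbp1l (0.972 each), and Tlr2 to Ptafr (0.933), Atp6v0c (0.919) and Pstpip2 (0.909). For Tlr4 these were Chmp3 (0.966), Spint1 (0.961) and Asah1 (0.959), for Cd180 Cbr1 (0.971), Pde4a (0.965) and Bend5 (0.964), and for Ly96 Cebpb (0.949), Fth1 (0.925) and Castor1 (0.915). Tlr1 (Lca5, Dcaf5 and Elp6, 0.881 to 0.892) and Tlr3 (Myo1e, Lmo4 and Cpeb4, 0.871 to 0.920) had the lowest values, and those of Tlr3 were 0.243 to 0.625 within groups.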

How the data were processed

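Per the study's methods, the authors pseudo-aligned reads with Kallisto to mouse genome mm10, and they deposited estimated counts per gene symbol, neither scaled nor pooled. Their notes name DESeq2 1.24.0. The Kallisto version, annotation and library strand are not given in the sources used here. All 12 columns were matched to labels, and no row lacked a gene name.

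Here the counts were rounded, and edgeR 4.0.16 in R 4.3.3 was used (TMM, filterByExpr, robust quasi-likelihood fit, all 12 libraries, group only), with Benjamini-Hochberg adjustment over 12122 genes. SE is the log2 fold change divided by the root of F. The fit was tested on simulated data. Depth was 10196248 to 27610175 counts, and p-values cover the spread between 3 libraries a group. Alternatives were RLE size factors, library sizes alone, DESeq2 1.42.0, limma-voom (limma 3.58.1), no count filter, 2-group fits, the replicate block and leaving out each library.

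The 18 pairs of libraries with the same replicate number in different groups deviated together from their group means (r = 0.117 to 0.401), against -0.354 to 0.102 for the 36 other pairs, so the numbers were taken to pair the libraries. The labels state no shared batch. The main fit did not use the pairing by number, and the replicate block did, so calls of both are given where they differ.

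The 10 genes and all lists were chosen with earlier results of these data known. Named list genes were the called ones with the largest change, up to 4 a list and comparison, with at least 5 CPM in the higher group. Others that complete a short list of calls, and single markers, were named after their values were seen. Some marker and motif results are not reported here. Coordinates, lengths and words came from GENCODE M21 (GRCm38), and upstream sequence from RefSeq.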

Additional observations from a re-analysis of the deposited data

How the results depend on the processing

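Of 420 values under other methods (10 genes, 6 comparisons), 378 kept direction and side of the threshold, as did 640 of 720 with 1 library left out and 37 of 60 without replicate 1 of all groups, which was added after the data were seen. The falls of Tlr4 and Cd180 and the rises of Tlr7 and Ly86 with LPS, the rise of Tlr9 with IFNγ, the differences of Tlr4, Cd180 and Cd14 between IFNγ and LPS and those of Tlr3 and Cd14 between αCD3 and LPS were called throughout. Tlr3 rests on 0 to 110 counts a library and had the largest SE of the 10 genes with LPS (0.84 on the log2 scale). On library sizes alone the median of all genes moved to -0.22 with LPS, -0.16 with IFNγ and -0.13 with αCD3, and no called direction changed. The cause of the changes below was not tested. Over the 20 alternatives adjusted p ran from 0.0021 to 0.197 for Cd14, 0.006 to 0.143 for Tlr3 and 0.0014 to 0.144 for Tlr9 with LPS, from 0.0064 to 0.275 for Cd14 with IFNγ, and from 0.0042 to 0.439 for Tlr4, 0.0074 to 0.313 for Cd14 and 0.00029 to 0.297 for Ly86 with αCD3. The replicate block changed no call beyond those given with it in the text.

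Genes called higher with LPS numbered 2 instead of 4 without the count filter, and 2 to 4 with 1 library left out. By DESeq2 and without replicate 1 of all groups, Tlr9 was called higher in addition to those 4 (adjusted p = 0.0257 and 0.0163). Genes lower with LPS numbered 4 instead of 2 without replicate 1 of all groups. With IFNγ, leaving out 1 library gave 1 to 3 higher and 0 to 1 lower, and 1 was lower by DESeq2, with the replicate block and without replicate 1 of all groups. Against 1 gene higher with αCD3 there were 0 by limma-voom, without the filter and in the 2-group fit, 2 with the replicate block, 3 by DESeq2 and without replicate 1 of all groups, and 0 to 3 with 1 library left out. Genes lower with αCD3 numbered 5 without replicate 1 of all groups and 0 to 2 with 1 library left out. Between IFNγ and LPS, 4 were higher and 2 lower without replicate 1 of all groups, and 2 to 3 higher with 1 library left out. Between αCD3 and LPS, 0 were higher by limma-voom, 2 without replicate 1 of all groups and 0 to 2 with 1 library left out, and 4 were lower with the replicate block. Between IFNγ and αCD3, 8 were higher with the replicate block, 7 without replicate 1 of all groups and 0 to 3 with 1 library left out.

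Over all genes the share called was 33.5%, 7.59% and 25% without the count filter with LPS, IFNγ and αCD3, and 38.6% to 49.8%, 6.38% to 13.4% and 25.4% to 40.2% with 1 library left out, lowest for IFNγ without IFNγ replicate 2. Between αCD3 and LPS it was 11.6% to 21% with 1 library left out. Without replicate 1 of all groups 29.2% were higher and 25.9% lower with LPS, 11.8% and 11.5% with IFNγ, 26.7% and 22.1% with αCD3, 22.3% and 25.5% between IFNγ and LPS, 14.3% and 15.1% between αCD3 and LPS, and 20.4% and 25% between IFNγ and αCD3.

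Direction turned only for values that were not called. On the log2 scale, with LPS, Ly96 was at -0.017 on library sizes alone. With IFNγ, Tlr2 was at -0.12 without Naïve replicate 1 (range over fits that leave out 1 library, -0.12 to 0.33) and -0.024 without replicate 1 of all groups, and Ly96 at -0.011 (range -0.011 to 0.28) and -0.0056 in those fits. Between IFNγ and LPS, Tlr1 was at -0.053 without LPS replicate 3 (range -0.053 to 0.34), Tlr7 at 0.15 without IFNγ replicate 1 and 0.089 without LPS replicate 2 (range -0.25 to 0.15), Ly96 at 0.039 on library sizes alone and without LPS replicate 3 (range -0.10 to 0.039), and Ly86 at -0.0071 without IFNγ replicate 2 (range -0.0071 to 0.34). Between αCD3 and LPS, Tlr2 was at 0.12 without αCD3 replicate 1 (range -0.33 to 0.12) and 0.047 without replicate 1 of all groups, and Tlr9 at -0.076 by limma-voom, -0.049 with the replicate block, and -0.31, -0.0054 and -0.078 without αCD3 replicate 2, αCD3 replicate 3 and LPS replicate 3 (range -0.31 to 0.30).

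With the length of all exons joined, levels in Naïve were Cd14 90.9, Ly86 82.7, Cd180 72.4, Tlr9 71.5, Tlr1 62.2, Tlr2 52.3, Tlr7 51.9, Ly96 14.0, Tlr4 11.2 and Tlr3 0.827 TPM.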
